A study of Mus musculus with 6 samples.

Results

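The baseline transcriptome of control basal keratinocytes was described from 3 of the 6 bulk RNA-seq libraries of the series, those labelled Ctrl, one library per replicate number. Ctrl embryos carried floxed alleles of *Suv39h1* and *Setdb1* (Suv39h1 f/f and Setdb1 f/f), had no functional *Suv39h2* (Suv39h2-/-), and were negative for K14CreERT2, a tamoxifen-dependent recombinase driven by the keratin 14 promoter, so no recombinase acted on the floxed alleles. Pregnant females had received tamoxifen on 3 consecutive days from E9.5, and cells positive for both Epcam and α6 integrin were sorted from dorsal skin at E16.5. These controls are therefore tamoxifen-exposed and *Suv39h2*-deficient, not wild type. The sources used here do not say whether a library came from one embryo or several, or from which litter, so the spread given below is the spread between these 3 libraries and may be partly technical.

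The epidermis is a stratified epithelium renewed from its basal layer, which is anchored to the basement membrane by hemidesmosomes and expresses the keratin pair Krt5 and Krt14 under the transcription factor p63, the product of *Trp63*. Cells that leave the basal layer switch to the keratins Krt1 and Krt10 in the spinous layer, then express the proteins of the granular and cornified layers that form the skin barrier. Basal cells of the embryo also give rise to hair follicles and to Merkel cells, the touch-sensing cells of the epidermis.

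Libraries were deep and similar in the number of genes detected. Total counts were 102159175 in replicate 1, 136515436 in replicate 2 and 104422632 in replicate 3. Levels are given as CPM, the count divided by the library size in megacounts after scaling by the trimmed mean of M-values (TMM), and levels of different genes are ranked against each other after division by the length of all exons of the gene in kilobases (CPM per kb), except where a rank or share is said to be by CPM. Shares of a list's sum are by CPM. A count of 3, taken as the floor, stood for 0.0295, 0.0232 and 0.0270 CPM in replicates 1, 2 and 3, and covers counting error only. Of 55536 identifiers listed, 12911 reached 1 CPM in all 3 libraries and 18628 had no count in any. The number of genes with any count was lowest in the deepest library, 25598 in replicate 2 against 31058 in replicate 1 and 30237 in replicate 3, whereas the numbers at 1 CPM were close, at 13866, 13581 and 13873. Annotated genes with a mean of 10 CPM or more numbered 9138, those with 100 CPM or more 2064 and those with 1000 CPM or more 49.

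Most counts fell on protein-coding genes. Nuclear protein-coding genes held 82.4%, 83.8% and 86.6% of the counts of replicates 1, 2 and 3, and mitochondrially encoded proteins a further 1.52%, 2.45% and 2.25%. Of 21558 nuclear protein-coding genes, 11695 reached 1 CPM in all 3 libraries. Identifiers without an entry in the annotation used here held 13.6%, 11.8% and 9.09%, and 3 of them alone held 13.2%, 11.4% and 8.86%. The share outside the annotation thus differed between libraries, was highest in replicate 1, and came almost wholly from these 3 identifiers, for which the files give no gene name. Long noncoding RNAs held 1.66%, 1.15% and 1.37%, with 461 of 9625 at 1 CPM in all libraries, and small or structured RNAs held 0.285%, 0.307% and 0.127%. Identifiers without annotation were placed in none of these types, so the share of each type is a lower bound. The 95% Wilson interval of each of these shares was at most 0.00739 percentage points to either side, which covers counting error only. The 100 highest identifiers of each library held 30.6%, 29.8% and 26.7% of its counts, or 20.4%, 21.0% and 19.9% of the counts on annotated genes.

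Keratins and genes of energy metabolism and protein synthesis led the annotated genes. By CPM, without regard to length, *Krt5* was first with 10670 ± 2367 CPM (SD, n = 3), followed by *Eef1a1*, a translation elongation factor, with 10532 ± 1526 CPM and *Krt1* with 9762 ± 34.9 CPM. The noncoding RNA *H19*, expressed from the maternal chromosome in embryonic tissues, was seventh with 4734, 4420 and 4130 CPM, and *Malat1*, an abundant nuclear noncoding RNA, was ninth. The 20 highest also held *Ahnak*, a very large scaffold protein, *Dsp*, the desmosomal plakin, and *Ctnnb1*, which encodes β-catenin. Per length, *mt-Co1*, a subunit of cytochrome c oxidase, stood first with 6212 ± 1544 CPM per kb and *Krt5* second with 4828 ± 1071 CPM per kb. *Krt10*, *mt-Nd1*, *Krt14*, *mt-Cytb*, *Krt1* and *Eef1a1* followed, between 3909 and 2120 CPM per kb. The libraries of neighbours in this order overlapped, except that the lowest library of *Krt10*, at 3700 CPM per kb, was just above the highest of *mt-Nd1*, at 3690. Short transcripts entered the upper 20 only after division by length. Among them were *Rplp1*, a ribosomal stalk protein, the histone gene *H4c6* and *Stfa3*, a stefin-type protease inhibitor with close copies in the genome. The small nucleolar RNA *Snora73b* and the small Cajal body RNA *Scarna2* were also among them. The exons of *Snora73b* and *Scarna2* lie wholly within exons of other genes on the same strand.

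**Figure D1:**
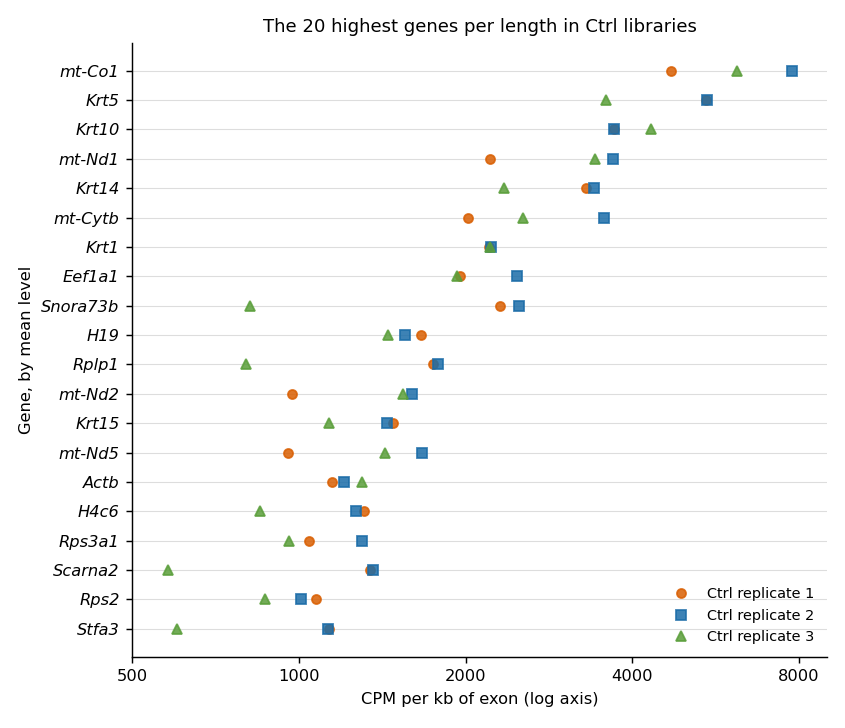
Level in CPM per kb of exon (log axis) of the 20 genes with the highest mean per length, among genes with at least 200 nt of exon, with one symbol for each Ctrl library. Of these, 5 are keratin genes. Replicate 3 is the lowest library for *Rplp1* (802 CPM per kb against 1746 and 1781). Not all short transcripts follow this, since *mt-Nd1*, with 957 nt of exon, is lowest in replicate 1 (2213 CPM per kb against 3690 and 3428).

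The markers of the label were present at high level in every library. *Krt5* (ENSMUSG00000061527, GRCm39 chr15:101615505-101621346, minus strand) had 12009, 12065 and 7937 CPM in replicates 1, 2 and 3, and its partner *Krt14* (ENSMUSG00000045545, chr11:100093988-100098490, minus strand) had 6177, 6377 and 4393 CPM. In both genes replicate 3 was the low library and the other replicates were close. *Trp63* (ENSMUSG00000022510, chr16:25502513-25710852, plus strand) had 752, 949 and 928 CPM, with replicate 1 lowest. All 20 genes of the basal keratinocyte list were above 1 CPM in every library. Their sum was 30827, 31798 and 24693 CPM, of which *Krt5* made 36.7%. The low sum of replicate 3 was not shared by most members. Replicate 3 was lowest for 9 of the 20, against 31.6% of all annotated genes with a mean of 1 CPM or more, and highest for 6. On plain total counts it was lowest for 6 and highest for 10. The median of the list in replicate 3 was -0.02 on the log2 scale against the geometric mean of the libraries. The genes of the surface proteins used for the sort were both expressed, *Epcam* with 75.1, 87.8 and 70.8 CPM and *Itga6*, encoding α6 integrin, with 450, 583 and 500 CPM.

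Spinous keratins also stood among the highest genes. *Krt1* (ENSMUSG00000046834, chr15:101753861-101759229, minus strand) had 9723, 9789 and 9775 CPM, the 3 libraries lying within a factor of 1.01 after TMM scaling. This closeness depends on the scaling, since plain total counts shift all values by -0.01, -0.08 and 0.09 on the log2 scale in replicates 1, 2 and 3. *Krt10* (ENSMUSG00000019761, chr11:99276072-99280195, minus strand) had 7870, 7878 and 9195 CPM, with replicate 3 highest. The ratio of *Krt5* and *Krt14* to *Krt1* and *Krt10*, each summed per kb, was 1.48 and 1.50 in replicates 1 and 2 and 0.908 in replicate 3, with a mean of 1.29 ± 0.335 (SD, n = 3). The pair *Krt5* and *Krt14* thus exceeded the pair *Krt1* and *Krt10* in 2 libraries and not in the third, where *Krt5* and *Krt14* were low and *Krt10* high. With *Krt15* counted as a basal keratin too, a choice made after seeing the data, the ratio was 1.73, 1.74 and 1.08 in replicates 1, 2 and 3, so that in replicate 3 the direction depended on whether *Krt15* was included. Exon length sets part of this value, since the annotated exons of *Krt1* sum to 4415 nt and its longest transcript to 3133 nt. With the longest transcript of each gene the ratio of the pairs was 1.29, 1.31 and 0.803 in replicates 1, 2 and 3, and without division by length 1.03, 1.04 and 0.650, with means of 1.13 and 0.909. Replicates 1 and 2 were thus above 1 and replicate 3 below 1 under each length. With *Krt15* included these means were 1.33 and 1.04, and replicate 3 was at 0.961 and 0.757. In bulk RNA, a larger number of cells of one type and more RNA in each such cell cannot be told apart. A sort on Epcam and α6 integrin therefore gave RNA that carried the defining basal genes together with abundant spinous transcripts.

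Stretches before the annotated starts of *Krt5* and *Krt10* are shown because these genes led the basal and the spinous keratins per length. They are the 150 bases upstream of the start in RefSeq on GRCm38.p6, read 5′ to 3′ on the minus strand, with matches to TATAAA or ATAAAA in capitals. The *Krt5* stretch is chr15:101712906-101713055 and the *Krt10* stretch is chr11:99389365-99389514.
Krt5: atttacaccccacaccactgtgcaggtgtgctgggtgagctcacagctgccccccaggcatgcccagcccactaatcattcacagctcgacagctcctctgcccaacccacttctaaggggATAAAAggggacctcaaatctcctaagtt
Krt10: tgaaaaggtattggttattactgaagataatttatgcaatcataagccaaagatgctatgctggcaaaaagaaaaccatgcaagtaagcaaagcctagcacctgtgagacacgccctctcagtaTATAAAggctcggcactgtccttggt

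TATAAA is a common form of the TATA box, the element near the start that positions RNA polymerase II in some promoters, and ATAAAA was added after the *Krt5* stretch had been seen. In *Krt10* the single match to TATAAA began 26 bases before the start, and in *Krt5* the single match to ATAAAA began 29 bases before it. Searched on both strands, TATAAA was present in 7.57% and ATAAAA in 10.1% of 32851 stretches of the same length and position, and the words can overlap each other by their shared letters. The matches describe letters in these windows and were not tested for function.

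Beyond these 4 keratins and *Krt15* the family fell off steeply. Of 54 keratin genes, 14 were above 1 CPM in all libraries, 36 had a mean under 1 CPM and 6 were at or under the floor in every library. *Krt15*, a keratin of the basal layer and hair follicle bulge, had 1351 ± 190 CPM per kb, and *Krt17*, a keratin of hair follicle and periderm cells, had 232 ± 54.1 CPM per kb. *Krt5*, *Krt10*, *Krt14*, *Krt1* and *Krt15* together made 98.2% of the summed keratin level per kb. The next genes were *Krt77*, a suprabasal keratin, with 17.8 ± 6.88 CPM per kb and *Krt16*, a keratin of wounded and hyperproliferative epidermis, with 11.3 ± 0.466 CPM per kb. Their values were an order of magnitude below *Krt17* in all libraries. *Krt6a*, which has near-identical copies that could share reads, was at 0.824 ± 0.529 CPM per kb.

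**Figure D2:**
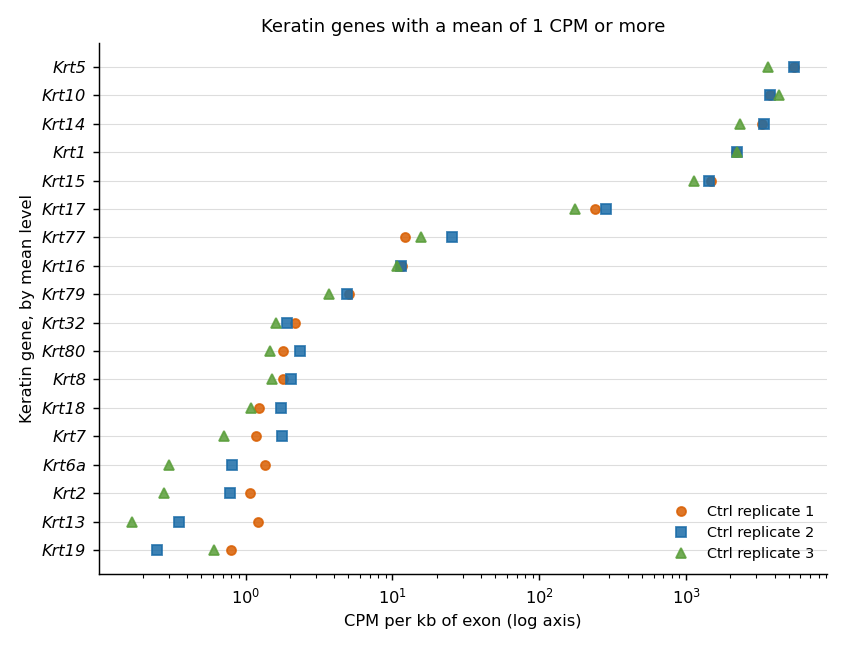
Level in CPM per kb of exon (log axis) of the 18 keratin genes with a mean of 1 CPM or more, with one symbol for each Ctrl library. A gap separates *Krt17*, with a mean of 232 CPM per kb, from *Krt77*, with a mean of 17.8, and replicate 3 is lowest in 14 of the 18, against 31.6% of all annotated genes with a mean of 1 CPM or more.

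The other layers of the lineage were represented unequally. The list for the spinous layer had all 11 genes above 1 CPM in every library and summed to 19964, 20525 and 21444 CPM, of which *Krt1* made 47.3%. It included *Krtdap*, a secreted protein of differentiating keratinocytes, with 521, 520 and 500 CPM, *Lgals7*, an epithelial galectin, with 624, 717 and 471 CPM, and *Dsc1*, a suprabasal desmocollin, with 103, 158 and 188 CPM. The list for the granular and cornified layer summed to only 247, 328 and 347 CPM over 18 genes, 9 of which were above 1 CPM in all libraries. Within it, *Casp14*, a protease of the cornifying cell, had 68.0, 74.7 and 98.3 CPM, *Abca12*, the lipid transporter of lamellar granules, had 66.6, 81.8 and 87.9 CPM, and *Tgm3*, an epidermal transglutaminase, had 40.0, 40.6 and 63.3 CPM. Per length these genes had 33.4, 5.32 and 11.6 CPM per kb, and the envelope protein genes were lower, with 2.62 for *Loricrin*, 1.21 for *Ivl*, encoding involucrin, and 0.00821 CPM per kb for *Flg*, encoding profilaggrin. *Loricrin* had 1.89, 11.4 and 2.14 CPM, *Ivl* had 0.758, 4.04 and 2.20 CPM, and *Flg* had 0.187, 0.0155 and 0.261 CPM. *Flg* was under the floor in replicate 2 and above it in the others. Keratins of simple epithelium and periderm, the transient outer layer of the embryonic epidermis, summed to 18.5, 20.5 and 11 CPM over 6 genes, with *Krt8*, the keratin of early ectoderm and Merkel cells, at 3.52, 4.01 and 2.98 CPM.

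Most adhesion genes on the lists were well expressed in these cells. The 12 desmosome genes, which join keratinocytes to each other, summed to 8393, 9805 and 9110 CPM and were all above 1 CPM. *Dsp* led with 376 ± 49.9 CPM per kb, followed by *Pkp1*, a plakophilin, with 328 ± 17.9 and *Dsc3*, the basal desmocollin, with 181 ± 24.4 CPM per kb. *Pkp2*, the plakophilin of heart and simple epithelia, was at 0.142 CPM per kb and *Dsc2* at 2.05 CPM per kb. Within this list *Jup*, encoding plakoglobin, with 142 CPM per kb and *Dsg1a*, which has near copies in the genome, with 101 CPM per kb came after *Dsc3*. *Perp*, a desmosome-associated membrane protein placed on the basal keratinocyte list, had 750 ± 47.7 CPM per kb, above *Dsp*. The 19 genes of hemidesmosomes and basement membrane had a sum of 8279, 8388 and 8509 CPM, and of 8232, 7931 and 9050 CPM on plain total counts. *Col17a1*, the transmembrane collagen of the hemidesmosome, had 192 ± 16.3 CPM per kb, *Itgb4*, the partner of α6 integrin, had 452, 428 and 465 CPM, and *Itgb1* had 162, 255 and 151 CPM. The laminin chain genes *Lama3* and *Lamb3* had 28.4 and 25.2 CPM per kb. Within the list *Nid1*, a basement membrane linker made largely by mesenchyme, stood apart with 14.1 CPM in replicate 1 against 38.2 and 45.1 CPM.

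Epidermal transcription factors were uniformly present. All 22 on the list were above 1 CPM in every library, with sums of 3528, 3656 and 3960 CPM, and *Trp63* made 23.6% of the sum. Per length, *Trp63* had 104 ± 12.9 CPM per kb, and the Krüppel-like factors *Klf5* and *Klf4*, the latter required for barrier formation, had 88.4 and 87.7 CPM per kb. *Tfap2a*, an AP-2 factor of early epidermis, had 57.4 CPM per kb and *Zfp750*, a factor of terminal differentiation downstream of p63, had 51.0 CPM per kb. The lowest were *Msx2* with 1.56 and *Runx1* with 3.99 CPM per kb, where the median of all annotated genes with a mean of 1 CPM or more was 3.83 CPM per kb. The list had a median of 26.4 CPM per kb.

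In the Notch pathway, which promotes exit from the basal layer, a receptor and the Jagged ligands led. *Notch1* had 1305, 871 and 1362 CPM, with replicate 2 lowest, and made 47.5% of the sum of 15 genes, or 82.9 CPM per kb. *Notch2* and *Notch3* were next among the receptors with 18.2 and 20.1 CPM per kb, whereas *Notch4*, an endothelial receptor, had 0.143 CPM per kb. Among ligands *Jag2* had 307, 307 and 305 CPM, *Jag1* had 189, 178 and 195 CPM and *Dll1* had 53.9, 69.8 and 64.8 CPM, which came to 43.2, 31.5 and 12.7 CPM per kb. *Dll3*, *Dll4* and the target gene *Hey1* were near 1 CPM, while the target gene *Hes1* had 64.7, 67.8 and 77.0 CPM. Libraries differed little in the ligands.

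Wnt and bone morphogenetic protein signals pattern the embryonic epidermis and its follicles, and all 23 genes of this list were above 1 CPM in every library. The Wnt ligands with the highest levels per length were *Wnt4* with 45.9, *Wnt7b* with 31.9, *Wnt6* with 31.6, *Wnt3* with 30.9 and *Wnt10b* with 29.3 CPM per kb. *Wls*, the carrier needed to secrete them, had 325, 442 and 353 CPM. *Wnt5a*, a ligand made largely by dermal cells, had 3.70, 9.32 and 7.95 CPM and was lowest in replicate 1. *Axin2*, a target of β-catenin, had 159, 149 and 181 CPM, *Bmp7* had 200, 218 and 223 CPM and the receptor gene *Bmpr1a* 147, 238 and 178 CPM.

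Of the 17 genes on the list for EGF and FGF signalling, 10 were above 1 CPM in all libraries. Receptor levels ran from 52.2 CPM per kb for *Fgfr2* through 47.5 for *Erbb2*, 36.5 for *Erbb3*, 24.2 for *Egfr*, 15.9 for *Fgfr3* and 5.77 for *Fgfr1* to 0.0819 for *Erbb4*. The 9 ligands on the list lay between 0.0406 CPM per kb for *Ereg* and 2.55 for *Tgfa*, below each of these receptors except *Erbb4*. *Errfi1*, an inhibitor of EGF receptors, had 10.5 CPM per kb. *Fgfr2*, the receptor through which dermal FGF7 and FGF10 act on keratinocytes, had 591, 602 and 582 CPM. *Egfr* had 250, 307 and 279 CPM, *Erbb2* 292, 220 and 259 CPM and *Erbb3* 262, 196 and 232 CPM. Among EGF family ligands *Tgfa* had 16.0, 12.2 and 24.1 CPM, or 2.55 CPM per kb, and *Areg*, *Ereg* and *Btc* were under 1 CPM in every library. *Fgf7* was under 1 CPM in all libraries as well, and *Fgf10* had 0.266, 1.26 and 0.990 CPM. The pattern of *Fgf10* had replicate 1 as the low library, as in the fibroblast genes below.

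Hair follicle genes were present at moderate level. Of 16 on the list, 15 were above 1 CPM in every library, and the sum was 1871, 1905 and 2126 CPM. *Ptch1*, the receptor and target of Hedgehog signalling, made 30.1% of it and *Lef1*, a Wnt effector of the placode, had 318, 288 and 347 CPM. Both genes are also used outside the follicle, and had 40.2 and 34.0 CPM per kb. *Shh*, the ligand made by placodes, had 20.4, 24.8 and 36.2 CPM, *Edar*, the ectodysplasin receptor, 107, 114 and 109 CPM, and *Sox9* 49.9, 53.8 and 59.1 CPM. Per length *Shh* and *Edar* had 9.52 and 29.7 CPM per kb. *Shh* was highest in replicate 3. *Foxe1* had no count in replicate 2 and 0.0886 and 0.135 CPM in replicates 1 and 3.

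Merkel cell and melanocyte genes were detected at low level. The 10 Merkel cell genes summed to 18.6, 20.5 and 22.3 CPM, but *Piezo2*, a mechanically gated channel that is not confined to Merkel cells, made 64.7% of it. The defining factors were near 1 CPM, with *Atoh1* at 0.807, 1.29 and 1.53 CPM, *Pou4f3* at 1.56, 1.47 and 1.72 CPM and *Sox2* at 1.62, 1.56 and 2.58 CPM. All were above the floor in every library, and *Atoh1*, *Pou4f3* and *Sox2* were each highest in replicate 3. The 9 melanocyte genes summed to 16.3, 24.5 and 25.0 CPM, led by *Kit*, with the pigment gene *Dct* at 1.27, 3.07 and 3.21 CPM. *Tyrp1* had 0.0394, 0.132 and 0.837 CPM.

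Genes of cells that a sort for epithelium should not contain were also measured. The 10 fibroblast genes summed to 1699, 4414 and 3535 CPM, so that they were well above trace level in every library. *Col1a1*, the main fibrillar collagen of dermis, made 30.0% of the sum with 358, 1315 and 1223 CPM. The more defining *Pdgfra*, a receptor of dermal fibroblasts, had 7.36, 26.3 and 20.6 CPM, *Lum*, a dermal proteoglycan, had 10.9, 59.3 and 30.1 CPM and *Twist2* had 4.33, 13.2 and 11.7 CPM. All 10 genes were lowest in replicate 1, against 36.0% of all 13788 annotated genes with a mean of 1 CPM or more. Against the geometric mean of the 3 libraries, the median of the list was -1.05, 0.62 and 0.33 on the log2 scale in replicates 1, 2 and 3, where that of all such genes was -0.02, 0.04 and 0.00. Replicate 1 was the lowest library for each of the 10 under every scaling tried.

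Erythroid genes were also lowest in replicate 1. The 9 genes summed to 20.4, 80.3 and 71.8 CPM, led by α-globin. *Hba-a1* had 9.46, 25.1 and 30.1 CPM and *Hbb-bs* had 6.67, 28.9 and 20.7 CPM, and each of them has a near-identical copy between which reads may be split. All 6 members with a mean of 1 CPM or more were lowest in replicate 1, against 36.0% of all annotated genes with that mean. The 12 immune genes summed to 34.7, 68.2 and 22.6 CPM, and 8 of the 9 members with a mean of 1 CPM or more were highest in replicate 2, against 43.1% of all such genes. They included the myeloid genes *Csf1r*, the macrophage growth factor receptor, with 11.4, 19.3 and 6.06 CPM, *Lyz2* with 4.85, 17.3 and 2.98 CPM and the complement gene *C1qa* with 3.63, 7.14 and 1.63 CPM. *Ptprc*, the pan-leukocyte gene, had 1.10, 1.48 and 0.711 CPM. On the list, *Trdc*, the constant gene of the δ T cell receptor chain, had 0, 0.0232 and 0.0720 CPM and *Cd207*, a gene of Langerhans cells, had 0.0295, 0 and 0.0450 CPM. *Trbc2*, a constant gene of the β chain that is not on the list, had 1.87, 2.67 and 1.57 CPM. It was chosen after its values were seen, and the other constant genes of T cell receptor chains were far lower. *Trac* had 0.167, 0.139 and 0.0450 CPM, and *Trbc1* and *Trgc1* had means of 0.00328 and 0.0607 CPM. *Trgc2*, *Trgc3* and *Trgc4* had no count in any library.

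Genes of other cell types were measured at varied levels. The 9 genes of endothelial and mural cells summed to 89.6, 91.5 and 117 CPM, of which *Cspg4* made 54.4%. The defining endothelial genes *Pecam1*, with 7.62, 7.07 and 10.1 CPM, and *Cdh5*, with 8.35, 8.45 and 12.7 CPM, had 0.828 and 2.25 CPM per kb against 4.53 for *Cspg4*. Schwann cell and neuron genes summed to 2.92, 6.79 and 4.95 CPM over 10 genes, and *Foxd3* had no count in any library. Skeletal muscle genes summed to 6.61, 7.18 and 6.14 CPM, with the muscle-determining factor *Myod1* at 0.148, 0.155 and 0.0270 CPM. Germline genes summed to 16.6, 22.3 and 24.8 CPM, of which *Tdrd1*, a piRNA pathway gene, made 87.9% with 14.0, 20.4 and 21.6 CPM. Apart from *Tdrd1* and *Stag3*, a meiotic cohesin subunit with 1.86, 1.40 and 2.55 CPM, no germline gene on the list reached a mean of 1 CPM, and *Mael* had no count. A count of 0 allows up to 0.0295, 0.0232 and 0.0270 CPM in replicates 1, 2 and 3. The part that other cells or their free RNA had in the levels of the epidermal genes was not tested.

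**Figure D3:**
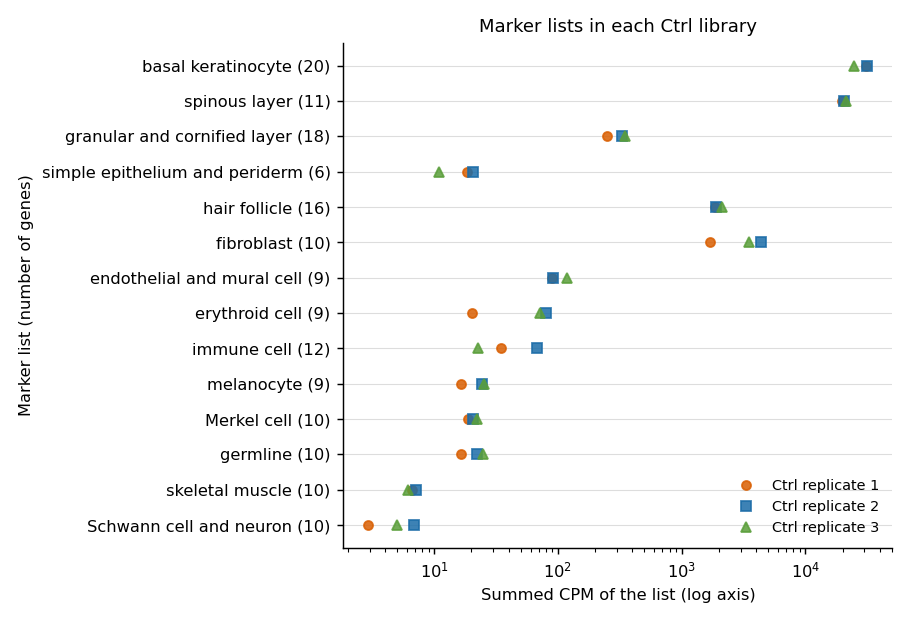
Summed CPM (log axis) of each marker list in the 3 Ctrl libraries, with the number of genes on each list in parentheses. Basal and spinous lists sit between 19964 and 31798 CPM, the fibroblast list ranges from 1699 to 4414 CPM, and the erythroid list is lowest in replicate 1 with 20.4 CPM.

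Proliferation genes and immediate early and heat shock genes also varied between libraries. All 19 proliferation genes were above 1 CPM in every library, with sums of 2686, 3254 and 2261 CPM. *Mki67*, a marker of cycling cells, had 385, 717 and 374 CPM and *Top2a*, a topoisomerase of dividing cells, had 416, 565 and 308 CPM. Replicate 3 was the lowest library for 18 of the 19, against 31.6% of all annotated genes with a mean of 1 CPM or more, and for 12 of the 19 on plain total counts. Immediate early and heat shock genes, which respond within minutes to growth factors, stress and tissue digestion, summed to 2785, 2069 and 2179 CPM. *Jun* had 420, 263 and 229 CPM, *Egr1* 292, 117 and 201 CPM and *Fos* 304, 261 and 288 CPM. Of the 13 members with a mean of 1 CPM or more, 12 were highest in replicate 1, against 26.3% of all annotated genes with that mean. Replicate 2 was lowest for 10 of the 13, against 32.4%. *Hspa8*, a constitutive chaperone, made 37.3% of the sum. *Jund* was at or near 0 in all libraries, and its exons overlap a gene on the other strand.

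The genes of the H3K9 methylation machinery, which the series concerns, were all expressed. *Setdb1* had 122, 118 and 117 CPM, *Suv39h1* had 86.5, 78.6 and 81.5 CPM and *Trim28*, the corepressor that recruits SETDB1, had 471, 403 and 378 CPM. *Suv39h2* had 15.5, 17.1 and 15.1 CPM although both of its alleles are mutant. Counts over a whole gene do not show whether the deleted part is absent, so these values check nothing about the genotype. Among readers of the mark, *Cbx5*, which encodes HP1α, had 453, 579 and 424 CPM. The euchromatic methyltransferases *Ehmt1* and *Ehmt2* had 12.9 and 28.5 CPM per kb, against 10.9 for *Setdb1*, 15.1 for *Suv39h1* and 1.58 for *Suv39h2*.

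Sex-linked genes matched the sex code in the library names, which is F for replicate 1 and M for the others. *Xist*, the RNA of the inactive X chromosome, had 2572 CPM in replicate 1 and 0.294 and 0.450 CPM in replicates 2 and 3. *Uty*, *Kdm5d*, *Ddx3y* and *Eif2s3y*, which lie on the Y chromosome, had no count in replicate 1 and between 45.2 and 103 CPM in the others. Among these 3 libraries, sex cannot be told apart from any other property of replicate 1, including its low fibroblast and erythroid sums.

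Apart from these genes the libraries were alike over most of the transcriptome. Pearson's r of log2(CPM + 0.5) across the 12911 genes above 1 CPM in all libraries was 0.977 for replicates 1 and 2, 0.984 for replicates 1 and 3 and 0.978 for replicates 2 and 3. These values are across genes, which are not independent replicates. The median biological coefficient of variation, edgeR's estimate of spread beyond counting error, was 23.3% over the 18063 genes that passed a filter on low counts, and 73.1% without that filter. Of 12829 annotated genes above 1 CPM in all libraries, 92.0% had a highest library less than 2-fold above the lowest, and the median ratio of highest to lowest was 1.31. Genes with a mean from 1 to 10 CPM had a median coefficient of variation of 21.5%, against 12.4% from 10 to 100 CPM, 11.5% from 100 to 1000 CPM and 12.0% above that. Most of the narrowing thus lay between the first and the second of these ranges.

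The protein-coding genes that varied most, among 10199 with a mean of 5 CPM or more, were of few kinds. The 4 Y-linked genes came first. *Aspn*, *Ogn*, *Lox* and *Agtr2* followed the fibroblast list, with *Lox*, an enzyme that cross-links collagen, at 6.37, 37.1 and 28.0 CPM and *Aspn*, a small matrix proteoglycan, at 0.856, 11.7 and 5.05 CPM. *Loricrin* was highest in replicate 2, and *Btf3l4b* had 9.56, 5.76 and 0.684 CPM. Genes at least 2-fold away from both other libraries, on log2(CPM + 0.5), were mostly low ones in replicate 1 (82 lower, 2 higher) and in replicate 3 (41 lower, 3 higher), and mostly high ones in replicate 2 (30 higher, 6 lower). In replicate 2 the genes that stood furthest apart were *Loricrin*, the coagulation factor gene *F13a1*, a gene of tissue macrophages, with 14.3, 55.8 and 10.6 CPM, *H2bc26*, *Lyz2* and, on the low side, *Hoxb9*. In replicate 3 they were *Btf3l4b*, *Apoe* with 45.8, 52.7 and 12.6 CPM, the histone genes *H2bc18* and *H2ac20*, all on the low side, and *Skint1*, a selecting element for epidermal γδ T cells, with 2.80, 3.31 and 13.9 CPM.

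**Figure D4:**
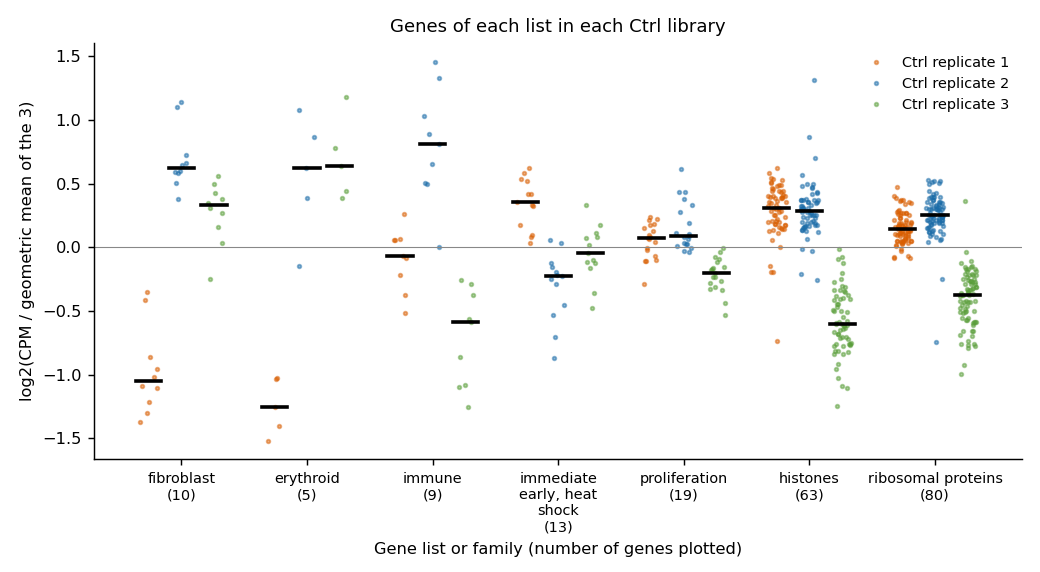
log2 of the CPM of each gene over the geometric mean of the 3 Ctrl libraries, by list or family and library. Points are genes with a mean of 1 CPM or more and a count in every library, and bars are medians. Fibroblast and erythroid genes lie low in replicate 1, immune genes high in replicate 2, and histone and ribosomal protein genes low in replicate 3.

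Replicate 3 was low for protein-coding genes with a short summed exon length. Against the geometric mean of the 3 libraries, the 28 protein-coding genes with at most 500 nt of exon had medians of 0.34, 0.31 and -0.63 on the log2 scale in replicates 1, 2 and 3, among genes above 1 CPM in all. For the 80 genes from 500 to 1000 nt the medians were 0.14, 0.23 and -0.29, and for the 4269 genes over 8000 nt they were -0.07, 0.05 and 0.02. The shortest bin was largely histone genes, which made 25 of its 28 members and 20 of the 80 in the next bin. Without histone genes the 60 remaining genes from 500 to 1000 nt had medians of 0.07, 0.23 and -0.22, and the 462 from 1000 to 2000 nt had 0.06, 0.13 and -0.15, so a smaller difference that shrank with exon length was left. The 2 gene families that follow were chosen after their values were seen, and the histone genes are not independent of the bins above. Of the 63 clustered histone genes with a mean of 1 CPM or more, which package newly replicated DNA, 60 were lowest in replicate 3, against 31.6% of all annotated genes with that mean, and the summed level of all 68 was 15910, 15728 and 9203 CPM. Of 80 ribosomal protein genes with that mean, 78 were lowest in replicate 3, against the same 31.6%, and the sum over all 83 was 47743, 51911 and 35214 CPM. Among 42 small nucleolar and Cajal body RNAs above 1 CPM in all libraries, 38 were lowest in replicate 3, with sums of 2441, 2590 and 1013 CPM, where the 31.6% again refers to annotated genes with a mean of 1 CPM or more. Replicate 3 was also the library with the smallest share of counts outside the annotation, with low proliferation genes and with low *Krt5* and *Krt14*. Whether exon length had a part in the low histone, ribosomal protein, proliferation or keratin values of replicate 3 was not tested.

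**Figure D5:**
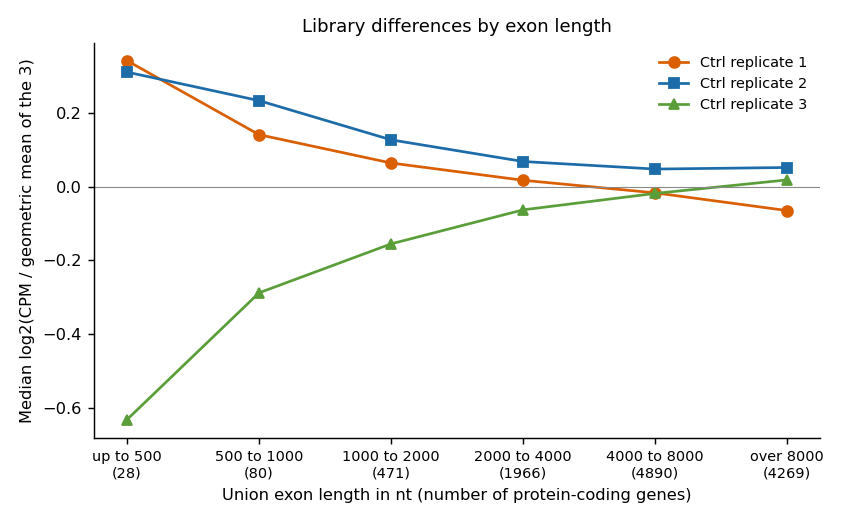
Median over protein-coding genes of log2 of the CPM over the geometric mean of the 3 Ctrl libraries, by exon length, with one line per library and the number of genes in each bin in parentheses. Replicate 3 lies at -0.63 in the shortest bin, where 25 of the 28 genes are histone genes, and at -0.02 and 0.02 in the bins above 4000 nt.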

How the data were processed

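The authors trimmed paired reads of rRNA-depleted RNA with fastp 0.23.4, aligned them with STAR 2.7.11b and deposited raw counts per Ensembl gene, without normalization or pooling. The paper names GRCm39 and the submitters' processing notes GRCm38. The counting program, annotation and strand setting are not given in the sources used here, so genes that overlap, and near-identical copies, are uncertain. Of 55536 identifiers 51477 were matched by ID to GENCODE vM39 (GRCm39), which gave symbols, types and exon lengths.

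From the 3 Ctrl columns, counts were scaled by TMM over these libraries alone (edgeR 4.0.16, R 4.3.3). Levels are means ± SD, with no test, since there is 1 group. The biological coefficient of variation came from edgeR after filterByExpr with a minimum count of 10. Scripts were tested on simulated data. Scaling by totals and DESeq2 1.42.0, other thresholds and lengths, and each library left out were tried.

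Named genes were the 20 highest by CPM and per kb, the 24 fixed lists, keratins, the 10 most variable protein-coding genes and the 5 furthest apart in each library. Members and lists were chosen with earlier results of these data known, and genes outside this rule after their values were seen. The TKO libraries were not used here.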

Additional observations from a re-analysis of the deposited data

How the results depend on the processing

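No paired analysis was possible because the values describe 1 group and come from no test. The number of genes at 1 CPM in all libraries, 12911, ranged from 13021 to 13482 with 1 library left out, and stayed within 1.5 times of its value under every scaling and threshold tried, up to 18349 at 10 counts or more. Shares depended on the denominator: over annotated genes only, protein-coding genes held 97.6% in place of 86.3% (85.1% to 87.6% with 1 library left out), and the 100 highest genes 20.4% in place of 29.0% (28.2% to 30.2%). The median biological coefficient of variation was 73.1% without a filter on low counts and between 22.7% and 27.0% with 1 library left out, the highest without replicate 3. The keratin ratio was 0.909 without division by length, with 1.03, 1.04 and 0.650 in replicates 1, 2 and 3, so that only replicate 3 was below 1, as it was per kb, and between 1.19 and 1.49 with 1 library left out. With *Krt15* counted as basal, an alternative chosen after seeing the data, it was 1.52 per kb and 1.04 without division by length. The lowest correlation was 0.981 with a pseudocount of 5 and 0.991 over all genes with a count. Of the 20 highest genes per length, 18 remained with the longest transcript and 17 with a minimum of 500 nt. Leaving out histone genes, an alternative chosen after seeing the data, moved the median of replicate 3 over genes of 1000 nt or less from -0.40 to -0.25 on the log2 scale, and leaving out ribosomal protein genes too to -0.22. Scaling to annotated totals raised all values by 0.20, 0.10 and 0.23 on the log2 scale in replicates 1, 2 and 3. List sums moved by less than their SD in 62 of 72 other scalings. With 1 library left out this held in 66 of 72 cases, but the SD came from the same 3 libraries. That count was thus largely set in advance and does not show that the sums are robust. The sex-linked sum fell from 1022 to 248 CPM without replicate 1 and still moved by less than its SD. The library with the lowest sum was the same under all scalings for the fibroblast, erythroid, immune, proliferation, histone and ribosomal protein genes, and changed for the spinous, hair follicle, hemidesmosome, transcription factor, endothelial and H3K9 methylation lists.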

Other observations

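Hox genes, which record position along the body axis, were read after their values were seen. Of 39 Hox genes, 23 had a mean of 1 CPM or more, and 20 of these were among the 23 genes of paralogue groups 1 to 8. These anterior and central genes summed to 378, 289 and 372 CPM in replicates 1, 2 and 3, and the 12 genes of groups 10 to 13 to 6.65, 9.27 and 7.54 CPM, of which *Hoxc13*, a hair and nail gene, made 74.9%, 88.0% and 78.5% with 4.98, 8.16 and 5.92 CPM. *Hoxa7* had 74.3, 38.7 and 70.1 CPM, *Hoxb8* 36.4, 14.4 and 28.5 CPM and *Hoxb9* 11.6, 3.05 and 11.3 CPM. Replicate 2 was the lowest library for 15 of the 23 expressed genes, against 32.4% of all annotated genes with a mean of 1 CPM or more, whereas *Hoxb2*, with 22.0, 24.8 and 22.5 CPM, was not low in it.

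Several noncoding and imprinted genes, also chosen after their values were seen, differed in how steady they were. *Neat1*, the RNA of nuclear paraspeckles, had 732, 95 and 371 CPM, a 7.71-fold range, while the neighbouring *Malat1* had 4024, 3625 and 3563 CPM. *Mir205hg*, the host transcript of a keratinocyte microRNA, had 74.9, 86.2 and 195 CPM. *Kcnq1ot1*, an imprinted antisense RNA, had 323, 165 and 282 CPM and *Cdkn1c* in the same imprinted region had 69.0, 78.7 and 75.0 CPM. *Igf2* had 113, 126 and 127 CPM, with 3599 of its 6162 exon bases shared with another gene on the same strand. *Dlk1*, with 7.84, 34.0 and 24.3 CPM, and *Meg3*, with 3.81, 9.69 and 11.7 CPM, were lowest in replicate 1, as was *Vim*, with 48.6, 122 and 107 CPM. *Mid1*, an X-linked gene, had 19.9, 39.8 and 106 CPM.

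Mitochondrially encoded proteins fell into high and low genes by CPM. Of 13, 7 had means over 100 CPM, down to 139 CPM for *mt-Nd6*, and 6 had means under 5 CPM. *mt-Co1* had 9597 CPM, whereas *mt-Co2* and *mt-Co3*, subunits of the same enzyme, had 1.93 and 2.53 CPM (2.82 and 3.23 CPM per kb, against 6212 for *mt-Co1*), and *Rpl24*, a ribosomal protein gene, had 2.38, 1.57 and 1.73 CPM. The treatment of reads that match several places is not given in the sources used here, and its part in these values was not tested.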
